A study of Homo sapiens with 23 samples.

Results

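Clone 10 is a population of drug-resistant melanoma cells grown from a single colony of the human line WM989 A6-G3, and its gene expression was set against that of the untreated parent line across all genes. Its members were chosen by their labels: the 3 libraries labelled Resistant Clone 10 and the 3 labelled Untreated, together 6 of the 23 libraries in the series. The clone was kept in 250 nM dabrafenib, an inhibitor of the kinase BRAF, together with 2.5 nM trametinib, an inhibitor of MEK, the kinase that BRAF activates. Clones 11, 12 and 13 were raised and kept in the same 2 drugs, clones 7, 8 and 9 in 1 µM vemurafenib, another BRAF inhibitor, and the untreated cells had no drug added. The labels give the cell line of clone 10 as WM989 A6-G3 A2 and the genotype of every sample as WT. Each clone was sequenced as 3 replicates except clone 11, which had 2, so the other 6 clones gave 17 libraries. Clone 10 stands for 1 colony, and its resistance and the presence of its drugs cannot be told apart in these samples. The question put to the data here was which changes of clone 10 from its parent the other 6 clones lacked or showed less.

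WM989 carries an activating BRAF mutation, so its growth depends on signalling through BRAF, MEK and ERK, which all 3 drugs block. Melanoma cells that survive such drugs are known to lose the pigment-cell programme driven by MITF and SOX10. Many take on a mesenchymal or fibroblast-like state instead, with receptor tyrosine kinases such as AXL and EGFR, secreted matrix and, in some cells, the contractile proteins of smooth muscle. These contractile genes are classic targets of serum response factor, which binds a DNA element called the CArG box, and of its partner MYOCD (myocardin).

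All levels are given as TPM, a share of all transcripts in a library that also takes their length into account, rescaled between libraries. Differences are on the scale of log2(TPM + 1), which understates the change of low genes. A gene was called when limma gave a Benjamini-Hochberg adjusted p under 0.05 over the 15657 genes tested and an absolute log2 difference of at least 1. The labels call the replicates biological without saying what separated them. The p-values therefore measure only the spread between replicate libraries within each group, which may be technical. Differences among the other clones are not part of that spread. A small p-value against the mean of the other clones thus does not place a gene outside the variation among resistant clones.

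Replicate 1 of clone 10 stood apart from its fellows before any comparison was made. It had 14415 genes above 0, against 22803 and 21930 in replicates 2 and 3 and 18671 or more in each other library. Of 13926 genes with a mean of at least 1 TPM, 1032 were at 0 in replicate 1, compared with 52 and 51 in replicates 2 and 3. Across the tested genes its log2 values correlated with those of replicates 2 and 3 at r = 0.944 and r = 0.936, and those of replicates 2 and 3 with each other at r = 0.979. Replicate 1 also held more of some melanocytic transcripts than its fellows: SOX10, a transcription factor of the pigment lineage, was at 14.1, 0.919 and 0.357 TPM in replicates 1 to 3. It was the highest of the 3 clone 10 libraries for 13 of 20 melanocyte genes, 8 of 17 contractile genes and 8 of 22 collagens, and for 5300 of all 15657 genes. The melanocyte genes summed to 1782, 1398 and 864 TPM in replicates 1 to 3, whereas the contractile genes summed to less in replicate 1, at 1277, 1458 and 1485 TPM. The part of this in the results was not tested, so results are given with and without replicate 1. Where 3 values are given for a group, they are those of replicates 1, 2 and 3. No read number can be had from TPM, and library depth is therefore unknown.

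The markers of the untreated state were largely lost, as in the other clones. The summed level of 6 melanocytic markers ran from 72.4 to 395 TPM in clone 10 libraries, from 29.6 to 476 TPM in the other clones and from 12540 to 13022 TPM in untreated cells. The 9 fibroblast markers summed to between 2361 and 2764 TPM in clone 10, between 2180 and 8024 TPM in the other clones and between 59.9 and 69.3 TPM in untreated cells. Most of the clone 10 sum was COL1A1, whose values are given below. Of 9 tested genes in the list of fibroblast markers, 9 were called higher than untreated cells, and 7 without replicate 1. Short panels of 6 keratinocyte, 5 endothelial and 5 immune markers each summed to 14.3 TPM or less in every clone 10 library. KRT5, KRT1, CD3E and MS4A1 were at 0 in all 3. In a separate list of immune cell markers, 4 were tested, and 1 was called higher and 1 lower than untreated cells. CD68 of that list was at log2 levels of 8.29, 8.54 and 8.15 in clone 10. It was at 7.14 to 9.54 in the other clones and 7.30, 7.35 and 7.31 in untreated cells. In bulk RNA, fewer cells of a type and less RNA per cell cannot be told apart.

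Against untreated cells, limma called 1845 genes higher in clone 10 (11.8% of those tested) and 1649 lower (10.5%). Without replicate 1 the counts were 1827 and 1510, of which 1646 and 1340 were called with it as well. The split between the directions depended on the scaling: 52.8% of the calls were higher here, and 68.2% (2515 higher and 1173 lower) with the values as deposited, which moved the median gene by 0.28 on the log2 scale. Of the called genes, 763 were also higher in each of the other 6 clones and 654 also lower in each. Another 191 higher and 267 lower genes were called that way in no other clone. The same test called 11% to 12.3% of genes higher in each of the other clones, with 11% in clones 7 and 8, 11.5% in clones 9 and 12, 11.7% in clone 11 and 12.3% in clone 13. It called fewer lower, at 8.54% in clone 7, 9.29% in clone 8, 8.29% in clone 9, 9.53% in clone 11, 8.02% in clone 12 and 8.35% in clone 13. In the mean of the 6 clones 10.9% were higher and 7.84% lower.

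The direct contrast with the mean of the other 6 clones called 431 genes higher (2.75%) and 451 lower (2.88%) in clone 10. Pair by pair, clone 12 was the nearest, with 133 genes (0.849%) higher and 260 (1.66%) lower in clone 10, followed by clone 13 with 224 (1.43%) higher and 480 (3.07%) lower. Clone 9 differed by 412 higher (2.63%) and 612 lower (3.91%), clone 11 by 670 (4.28%) and 757 (4.83%), and clone 7 by 802 (5.12%) and 892 (5.7%). Clone 8 was the most distant, with 955 higher (6.1%) and 947 lower (6.05%). A gene was taken as particular to clone 10 only if it was called against untreated cells and called the same way in all 6 direct contrasts with another clone. There were 39 such genes higher (0.249% of those tested) and 17 lower (0.109%), of which 24 and 14 were also found without replicate 1. With a pseudocount of 0.1 in place of 1, 72 were lower. The counts also depended on single libraries: 104 were higher and 42 lower without replicate 3 of clone 10, 36 were lower without its replicate 2, and 23 were higher without replicate 1 of clone 12. In 36 of the 39, and in 14 of the 17, all 3 clone 10 libraries lay beyond all 17 libraries of the other clones. The rule that chose these genes favours such separation, so it adds no support, and its share among all tested genes was not counted. A further 18 genes (0.115%) rose in each of the other 6 clones, were not called higher in clone 10 and were lower there than in each of them. Only 1 gene (0.00639%) showed the same for a fall. With a pseudocount of 0.1 there were 34 such rises and 2 such falls. Without replicate 3 of clone 10 there were 29 such rises and 3 such falls, and without replicate 3 of clone 13 there were 2 such falls.

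Among the genes particular to clone 10, the highest in level were an enzyme, a laminin chain and a growth factor. ALDH1A1, which oxidises retinaldehyde to retinoic acid, stood at 102, 182 and 99.6 TPM in the clone 10 libraries, with a lowest of 0.223, a median of 4.43 and a highest of 46.7 TPM in the other clones and 3.24, 3.68 and 3.21 TPM in untreated cells. It was the largest difference of the 39 genes from the other clones (log2 difference 4.45, SE 0.42, adjusted p = 3.13e-07 by limma) and rose against untreated cells (log2 fold change 4.83, SE 0.55, adjusted p = 4.5e-07). Its spread among the other clones was wide, with clone means from 0.249 (clone 8) to 24.5 TPM (clone 9), and even the highest of their libraries had less than the lowest of clone 10. Without replicate 1 the difference from the other clones was 4.58.

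LAMA4, a chain of the laminins of vessel and muscle basement membranes, was at 125, 179 and 85.1 TPM in clone 10, with a lowest of 5.09, a median of 34.2 and a highest of 58.2 TPM in the other clones and 31.4, 31.2 and 33.1 TPM in untreated cells. It rose against untreated cells in clone 10 (log2 fold change 1.92, SE 0.25, adjusted p = 2.94e-06), while it was called higher in no other clone and lower in 2. FGF7, a growth factor that fibroblasts secrete to act on epithelial cells, reached 56.9, 84.1 and 91.8 TPM in clone 10, against a lowest of 2.98, a median of 23.5 and a highest of 39.2 TPM in the other clones and 0.106, 0.148 and 0.127 TPM in untreated cells. FGF7 rose in all 7 clones, and in clone 10 it exceeded each other clone by 1.25 to 3.43 on the log2 scale (largest adjusted p = 0.00973). LAMA4 thus moved away from the other clones, whereas FGF7 went further in the direction they shared.

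**Figure D1:**
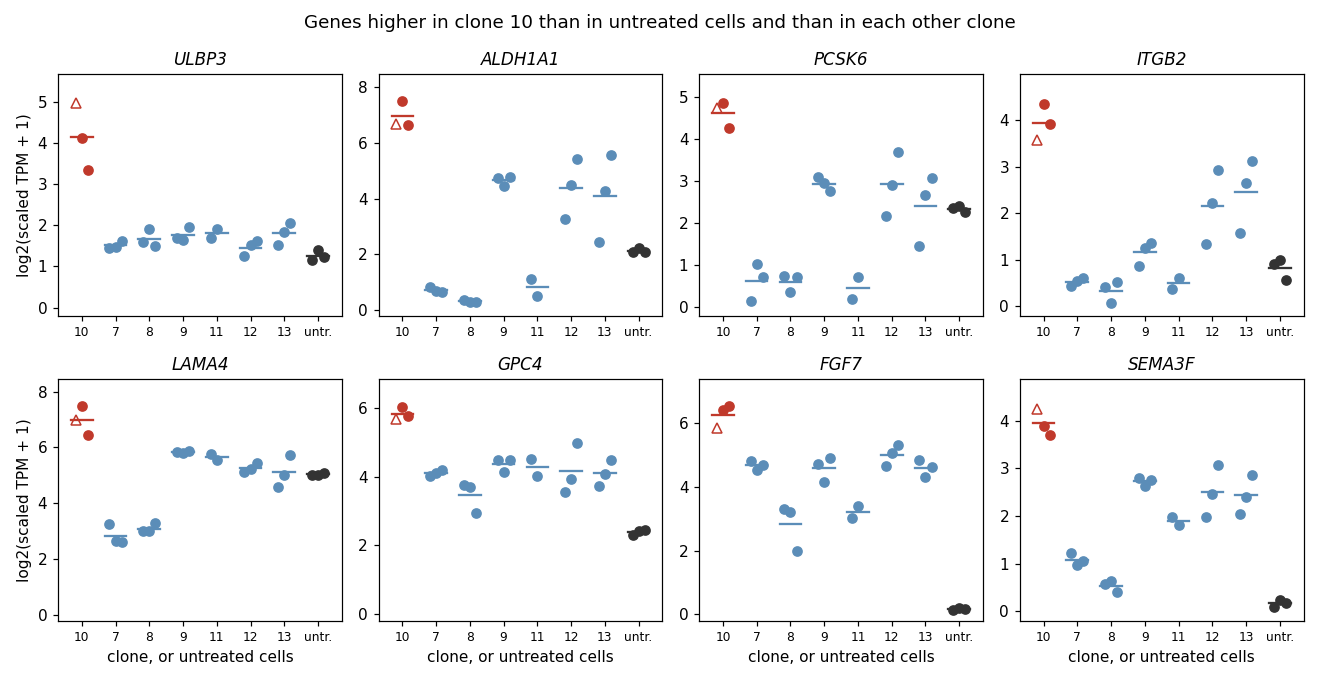
Level of 8 genes particular to clone 10, as log2(scaled TPM + 1), in clone 10 (red), the other 6 clones (blue) and untreated cells (black). Each point is a library, bars are group means, and the open triangle is clone 10 replicate 1. For each of the 8 genes, all 3 clone 10 libraries lie above every library of the other groups.

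The rule also named ULBP3, ITGB2 and KIR2DS2. ULBP3, a stress-induced ligand of the natural killer cell receptor NKG2D, stood at 30.3, 16.3 and 9.14 TPM in clone 10, with a lowest of 1.37, a median of 2.06 and a highest of 3.12 TPM in the other clones and 1.22, 1.62 and 1.35 TPM in untreated cells. It was higher than in each other clone by 2.34 to 2.69 (largest adjusted p = 9.82e-06, limma) and was called in no other clone against untreated cells. Its relative ULBP1 was at 3.09, 3.96 and 2.94 TPM in clone 10, a lowest of 0.550, a median of 0.741 and a highest of 1.05 TPM in the other clones and 0.546, 0.669 and 0.537 TPM in untreated cells, with a difference of 1.30 from the other clones. ITGB2, the beta chain of the leukocyte integrins, was at 10.9, 19.4 and 14.0 TPM in clone 10, with a lowest of 0.0448, a median of 0.830 and a highest of 7.68 TPM in the other clones and 0.889, 0.990 and 0.478 TPM in untreated cells (log2 difference 2.76, SE 0.27, adjusted p = 4.71e-07 against the other clones). ITGB2 was called higher than untreated cells in 2 other clones, and clone 13 had the highest of their means at 4.98 TPM. The natural killer receptor gene KIR2DS2 was at 4.27, 6.07 and 3.73 TPM, compared with at most 1.69 TPM in the other clones and at most 0.00507 TPM in untreated cells. KIR genes are near-identical to one another, so this assignment is uncertain. ULBP1 falls outside the rule for naming genes and was picked after its values were seen.

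Other rises named by the rule were those of PCSK6, GPC4 and SEMA3F. PCSK6, a convertase that cuts precursors of growth factors, was at 25.7, 27.8 and 18.1 TPM in clone 10, against a lowest of 0.109, a median of 1.74 and a highest of 12.0 TPM in the other clones and 4.15, 4.32 and 3.80 TPM in untreated cells. It rose in clone 10 (log2 fold change 2.27, SE 0.36, adjusted p = 3.56e-05), was called lower in 3 other clones and higher in none. GPC4, a heparan sulfate proteoglycan of the cell surface, stood at 50.7, 65.4 and 53.6 TPM in clone 10, with a lowest of 6.67, a median of 15.9 and a highest of 31.0 TPM in the other clones and 3.96, 4.31 and 4.42 TPM in untreated cells. GPC4 had risen in all 7 clones and was highest in clone 10. SEMA3F, a secreted guidance cue, reached 18.0, 13.9 and 12.0 TPM, with a lowest of 0.319, a median of 2.95 and a highest of 7.34 TPM in the other clones and 0.0623, 0.184 and 0.125 TPM in untreated cells (log2 difference 2.09, SE 0.17, adjusted p = 5.44e-08 against the other clones). All 3 clone 10 libraries of each of these genes lay above every other library.

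The remaining rises named by the rule included LIMCH1, a protein that binds non-muscle myosin, at 60.7, 69.3 and 24.6 TPM in clone 10, against a lowest of 1.40, a median of 6.15 and a highest of 23.1 TPM in the other clones and 0.796, 0.967 and 0.960 TPM in untreated cells. APOL3, an apolipoprotein L that interferon induces, stood at 31.7, 17.2 and 18.9 TPM, a lowest of 2.90, a median of 6.31 and a highest of 11.4 TPM and 0.118, 0.167 and 0.00696 TPM in the same order of groups. Both had risen in at least 4 other clones too. By contrast SLC27A6, a fatty acid transport protein, was at 3.38, 5.85 and 7.81 TPM in clone 10, at most 0.862 TPM in the other clones and at 0, 0 and 0.0217 TPM in untreated cells. SSX1, a cancer-testis antigen, was at 1.84, 6.32 and 10.2 TPM in clone 10, at most 0.977 TPM in the other clones and at most 0.0707 TPM in untreated cells, and its reads may be shared with near-identical SSX genes. GLDN (gliomedin) at 11.0, 4.87 and 3.17 TPM and PDZD2 at 5.38, 7.40 and 2.67 TPM in clone 10 compared with highest values of 1.94 and 1.14 TPM in the other clones and of 0.0534 and 1.08 TPM in untreated cells. SLC27A6, SSX1 and PDZD2 were called in no other clone.

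The genes lower in clone 10 than everywhere else were led by TNC, tenascin-C, a matrix glycoprotein of wounds and tumours. TNC was at 15.3, 1.70 and 3.98 TPM in clone 10, with a lowest of 28.0, a median of 74.5 and a highest of 141 TPM in the other clones and 16.2, 17.0 and 16.0 TPM in untreated cells. It fell in clone 10 (log2 fold change -1.53, SE 0.45, adjusted p = 0.00843, limma) and was the only gene called lower in clone 10 and higher in the mean of the other 6 clones against untreated cells, and 5 of those clones were called higher singly. The difference between clone 10 and the other clones was -3.63 (SE 0.347, adjusted p = 3.56e-07), and -4.34 without replicate 1, whose TNC was close to that of untreated cells. For the opposite pair of directions limma called 0 genes, also 0 at unadjusted p-values under 0.05.

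PRRX1, ZNF703 and ID4 were also among the genes lower in clone 10. PRRX1, a homeobox factor of mesenchyme, stood at 4.45, 2.12 and 1.30 TPM in clone 10, with a lowest of 6.92, a median of 21.8 and a highest of 41.7 TPM in the other clones and 35.5, 41.3 and 44.8 TPM in untreated cells. It fell by 3.61 in clone 10 on the log2 scale, and was called lower in only 1 other clone. ZNF703, a transcriptional repressor, fell in all 7 clones and furthest in clone 10, at 11.2, 6.77 and 13.0 TPM, against a lowest of 21.6, a median of 33.9 and a highest of 48.5 TPM in the other clones and 116, 108 and 108 TPM in untreated cells. ID4, an inhibitor of DNA binding, was at 1.89, 0.149 and 0.125 TPM in clone 10, with a lowest of 1.63, a median of 13.7 and a highest of 43.7 TPM in the other clones and 9.46, 8.31 and 8.58 TPM in untreated cells. Its replicate 1 overlapped the lowest library of the other clones, and the difference was -3.04 with and -3.48 without that replicate.

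The other genes lower in clone 10 had varied roles. CADPS, which primes dense-core vesicles for release, was at 4.04, 2.14 and 1.77 TPM in clone 10, against a lowest of 13.2, a median of 22.9 and a highest of 69.7 TPM in the other clones and 56.7, 52.9 and 55.0 TPM in untreated cells. STXBP6 (amisyn), which binds the SNARE proteins of vesicle fusion, was at 2.10, 1.67 and 1.87 TPM, a lowest of 8.05, a median of 11.6 and a highest of 25.3 TPM and 23.2, 23.4 and 22.8 TPM in the same order. Both fell (-3.99 and -3.07 on the log2 scale), and both were also called lower in 3 other clones, to a lesser extent. APBB1, an adaptor of the amyloid precursor protein, stood at 4.11, 1.53 and 1.71 TPM in clone 10, with a lowest of 8.93, a median of 14.2 and a highest of 21.0 TPM in the other clones and 19.3, 19.7 and 20.3 TPM in untreated cells. PCOLCE2, an enhancer of procollagen processing, was at 12.9, 1.66 and 1.11 TPM, a lowest of 9.35, a median of 12.9 and a highest of 28.1 TPM and 21.1, 19.7 and 20.2 TPM in that order, and replicate 1 alone reached the range of the other clones. APBB1 and PCOLCE2 were called in no other clone. PLXDC2, BAALC and the membrane protease MMP16 had differences of -2.01, -1.87 and -1.89 from the other clones, and -1.98, -2.20 and -1.89 without replicate 1. TGFB3, a transforming growth factor, was at 0, 0.517 and 0.394 TPM in clone 10 and 2.01, 1.16 and 1.61 TPM in untreated cells, and its fall, which just met the fold minimum, was -0.81 without replicate 1, no longer called.

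**Figure D2:**
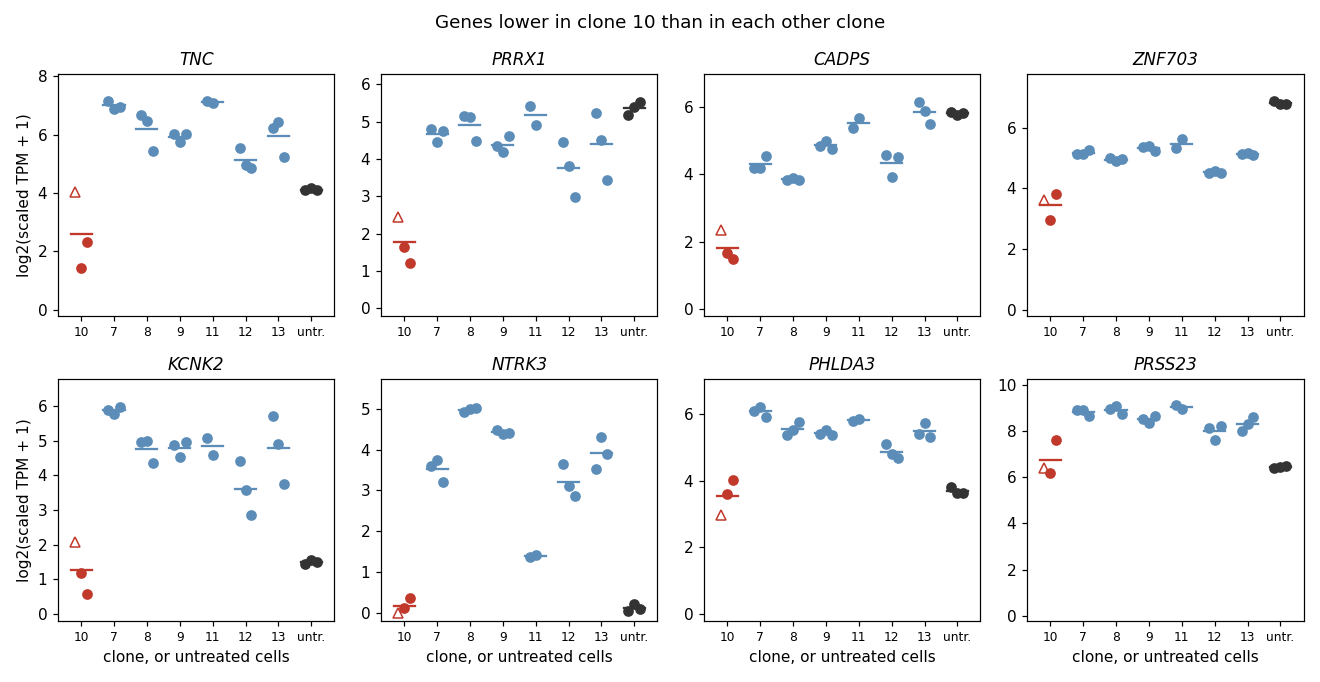
Level of 8 genes lower in clone 10 than in each other clone, as log2(scaled TPM + 1), in clone 10 (red; open triangle, replicate 1), the other 6 clones (blue) and untreated cells (black). Points are libraries and bars group means. TNC, PRRX1, CADPS and ZNF703 lie below untreated cells in clone 10, whereas KCNK2, NTRK3, PHLDA3 and PRSS23 lie near untreated cells there, except PRSS23 in replicate 3, and above them in each other clone.

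The 18 rises that clone 10 lacked were not called higher there than in untreated cells. KCNK2, the potassium channel TREK-1, stood at 3.20, 1.25 and 0.473 TPM in clone 10, against a lowest of 6.27, a median of 29.2 and a highest of 62.5 TPM in the other clones and 1.72, 1.91 and 1.81 TPM in untreated cells. NTRK3, the receptor tyrosine kinase for neurotrophin-3, was at 0, 0.0863 and 0.271 TPM in clone 10, with a lowest of 1.57, a median of 12.4 and a highest of 31.6 TPM in the other clones and 0.0320, 0.166 and 0.0709 TPM in untreated cells. Against the other clones limma gave a log2 difference of -3.52 for KCNK2 (adjusted p = 2.47e-07) and -3.41 for NTRK3 (adjusted p = 2.12e-11). Against untreated cells clone 10 differed by -0.23 and 0.03, neither called. For both genes the clone 10 libraries overlapped the untreated ones and lay below all 17 libraries of the other clones, though NTRK3 in clone 11 averaged only 1.61 TPM. NTRK3 was named after its values were seen.

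DACT1, an antagonist of WNT signalling, was at 2.29, 1.36 and 1.97 TPM in clone 10, with a lowest of 5.78, a median of 27.2 and a highest of 63.3 TPM in the other clones and 0.944, 1.07 and 1.18 TPM in untreated cells. VSTM2L was at 1.18, 1.62 and 0.975 TPM in clone 10, at 3.94 TPM or more in the other clones with a median of 14.0 TPM, and at 0.198, 0.245 and 0.240 TPM in untreated cells. For these 2 genes the clone 10 libraries lay slightly above all untreated ones, by 0.46 and 0.87 on the log2 scale, under the fold minimum. PRSS23, a secreted serine protease, was at 83.0, 71.0 and 194 TPM in clone 10, with a lowest of 196, a median of 397 and a highest of 556 TPM in the other clones and 83.2, 86.8 and 87.2 TPM in untreated cells. PHLDA3, a p53 target that restrains AKT, was at 6.84, 11.1 and 15.1 TPM, a lowest of 24.5, a median of 44.3 and a highest of 73.4 TPM and 12.9, 11.4 and 11.4 TPM in that order. TNIK, a kinase, and OLFM2 (olfactomedin 2) had differences of -1.70 and -1.98 from the other clones and of 0.11 and -0.20 from untreated cells. CORO2B, an actin-binding coronin, was at 9.12, 1.70 and 1.92 TPM in clone 10, with a lowest of 13.3, a median of 38.2 and a highest of 103 TPM in the other clones and 5.30, 5.89 and 5.99 TPM in untreated cells. Replicates 2 and 3 of clone 10 lay below the untreated libraries, and without replicate 1 CORO2B was called lower than untreated cells, at -1.25.

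The 1 fall that clone 10 lacked was that of MPPED2, a metallophosphoesterase. It stood at 7.84, 6.92 and 4.90 TPM in clone 10, against a lowest of 0.0561, a median of 0.151 and a highest of 2.39 TPM in the other clones and 5.28, 5.97 and 5.27 TPM in untreated cells. MPPED2 was higher in clone 10 than in each other clone by 1.52 to 2.78 on the log2 scale (largest adjusted p = 2.41e-05), and overlapped the untreated libraries (0.20, not called).

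A looser class, added after these values were seen, held 14 genes (0.0894% of those tested) that rose in all 7 clones but less in clone 10 than in each of the others. For falls, 0 genes met the same condition by limma, also at unadjusted p-values under 0.05, but 2 met it with a pseudocount of 0.1 and 1 with library weights, without replicate 2 or without replicate 3 of clone 10. With a pseudocount of 0.1 there were 30 smaller rises. Of the 14, 10 also met the condition without replicate 1, and 9 genes met it without replicate 1 of clone 12. FN1, fibronectin, was at 1713, 1095 and 1153 TPM in clone 10, with a lowest of 2708, a median of 9126 and a highest of 13691 TPM in the other clones and 247, 252 and 223 TPM in untreated cells. FN1 rose in clone 10 (log2 fold change 2.42, SE 0.19, adjusted p = 3.05e-09) and stood -2.48 from the other clones. The matrix proteoglycan SPOCK1, the collagen-binding integrin chain ITGA11 and the fibroblast protease FAP were at 57.5 ± 14.4, 41.6 ± 9.39 and 39.0 ± 2.30 TPM in clone 10 (SD, n = 3), against medians of 186, 156 and 99.3 TPM in the other clones and 0.396 ± 0.122, 0.265 ± 0.143 and 0.198 ± 0.0414 TPM in untreated cells (SD, n = 3). The ligand NRG1 (neuregulin 1) and the receptor NRP1 (neuropilin 1) differed from the other clones by -2.20 and -1.59, after rises of 1.84 and 3.74 against untreated cells. ITGA11 and FAP fall outside the rule for naming genes.

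The contractile and smooth muscle genes that differed from the other clones were all lower in clone 10. For this and the following lists, the shares of all tested genes called in clone 10 are the background. They were 11.8% higher and 10.5% lower than untreated cells, and 2.75% higher and 2.88% lower than the mean of the other clones. Of 17 tested, 5 were called higher and 1 lower than untreated cells, with a median log2 fold change of 0.60, against medians of 0.94 to 5.14 in the other clones and -0.03 for all genes in clone 10. Against the mean of the other 6 clones, limma called 0 higher and 8 lower, both with and without replicate 1 (0 and 14 at an unadjusted p under 0.05, which 19.2% of all tested genes passed as higher and 23.2% as lower). The promoters of 2 of these 8 genes are shown because both genes were lower in clone 10 than in the mean of the other clones and differ in the CArG box, which was searched on both strands. They span 250 bases before to 50 bases after the RefSeq start (GRCh38.p14, plus strand), at chr2:73892758-73893057 for ACTG2 and chr19:11538601-11538900 for CNN1. Capitals mark CArG boxes.
ACTG2: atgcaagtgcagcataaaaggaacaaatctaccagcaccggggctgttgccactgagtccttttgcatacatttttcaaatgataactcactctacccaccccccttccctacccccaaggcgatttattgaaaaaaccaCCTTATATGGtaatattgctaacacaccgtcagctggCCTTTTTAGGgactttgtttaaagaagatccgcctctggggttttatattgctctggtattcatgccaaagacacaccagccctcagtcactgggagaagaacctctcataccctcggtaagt
CNN1: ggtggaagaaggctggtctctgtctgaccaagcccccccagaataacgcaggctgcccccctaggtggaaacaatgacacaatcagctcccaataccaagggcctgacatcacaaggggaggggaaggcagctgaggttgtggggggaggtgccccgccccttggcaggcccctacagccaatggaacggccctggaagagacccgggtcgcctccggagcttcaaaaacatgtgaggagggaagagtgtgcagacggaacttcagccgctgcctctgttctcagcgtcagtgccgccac
Only exact boxes counted, with CC, a run of A or T, and GG at the length of those in capitals. Boxes with a mismatch were not looked for. By this pattern ACTG2 holds 2 boxes and CNN1 none in this window. Of all 35116 such promoters 1.29% held at least 1 box, as did 3 of the 12 matched promoters of tested contractile genes (ACTG2, ACTC1 and SMTN), and a match here is a description of letters only.

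TAGLN, the actin-binding transgelin, was at 19.9, 5.32 and 9.70 TPM in clone 10, with a lowest of 25.5, a median of 115 and a highest of 5812 TPM in the other clones and 4.61, 4.52 and 3.07 TPM in untreated cells. It was lower than in each other clone (log2 difference -4.48, SE 0.32, adjusted p = 1.13e-08 against their mean), and its rise of 1.16 against untreated cells was 0.72 and not called without replicate 1. ACTA2, smooth muscle alpha-actin, was at 88.8, 11.4 and 9.24 TPM in clone 10, with a lowest of 21.2, a median of 511 and a highest of 4544 TPM in the other clones and 11.4, 12.7 and 10.6 TPM in untreated cells. Replicates 2 and 3 of clone 10 lay at the untreated level and replicate 1 above it, and the difference from the other clones was -4.58 with and -5.58 without replicate 1. The other clones were not uniform: ACTA2 averaged 39.9 and 80.5 TPM in clones 12 and 13, from which clone 10, with replicate 1 included, was not called different. It averaged between 479.5 and 4402 TPM in clones 7, 8, 9 and 11. In log2 levels, replicates 2 and 3 of clone 10 (3.63 and 3.36) lay below every library of clones 12 and 13 (4.47 or more). Replicate 1 (6.49) did not.

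ACTG2, smooth muscle gamma-actin, rose against untreated cells in clone 10 as in the others, to 35.7, 9.35 and 12.9 TPM, with a lowest of 5.03, a median of 34.9 and a highest of 1737 TPM in the other clones and 3.03, 3.76 and 3.04 TPM in untreated cells. Clone 10 was called lower than 3 of the other clones in ACTG2. It averaged 19.3 TPM, with 16.6, 21.4 and 8.41 TPM in clones 9, 12 and 13, from which it was not called different. CNN1 (calponin) was at 0.705, 1.31 and 2.18 TPM in clone 10, with a lowest of 2.27, a median of 5.10 and a highest of 227 TPM in the other clones and 1.72, 0.714 and 0.964 TPM in untreated cells. MYOCD, the muscle partner of serum response factor, was at 1.34, 0.0394 and 1.07 TPM, a lowest of 0.253, a median of 2.29 and a highest of 99.5 TPM and 0.0226, 0.167 and 0.105 TPM in the same order. CNN1 and MYOCD were not called against untreated cells in clone 10 (0.15 and 0.64), whereas they were called higher in 5 and 4 other clones. Against the mean of the other clones they differed by -2.65 and -2.35, and LMOD1 (leiomodin) and SYNPO2 (synaptopodin 2) by -2.40 and -1.69. ACTA2, CNN1, MYOCD, LMOD1 and SYNPO2 fall outside the rule for naming genes and were picked after their values were seen.

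Most collagens rose in clone 10, but unevenly. Of 22 tested, 15 were called higher and 2 lower than untreated cells, with a median of 2.66, against 3.03 to 4.95 in the other clones. COL1A1, which encodes part of type I collagen, reached 2043, 2135 and 2065 TPM in clone 10, with a lowest of 1437, a median of 3035 and a highest of 6909 TPM in the other clones and 5.14, 8.80 and 5.92 TPM in untreated cells, and its difference of -0.63 from the other clones was not called. Its partner chain COL1A2 was at 6.82, 1.23 and 1.47 TPM in clone 10, with a lowest of 2.59, a median of 19.5 and a highest of 524 TPM in the other clones and 0.275, 0.396 and 0.246 TPM in untreated cells. COL1A2 was lower in clone 10 than in 5 of the other clones (log2 difference -3.83, SE 0.35, adjusted p = 1.69e-07 against the mean of all 6), and its rise of 1.43 against untreated cells was 0.85 and not called without replicate 1.

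COL4A1 and COL4A2, the chains of basement membrane collagen, lie side by side on chromosome 13 (GRCh38, positions 110148963 to 110307157 and 110307284 to 110513209). COL4A2 was at 5.65, 0.290 and 0.139 TPM in clone 10, with a lowest of 0.417, a median of 35.3 and a highest of 179 TPM in the other clones and 0.0807, 0.251 and 0.178 TPM in untreated cells, and COL4A1 at 5.16, 0.0738 and 0.0940 TPM, a lowest of 0.0807, a median of 12.6 and a highest of 104 TPM and 0.0148, 0.156 and 0.102 TPM in that order. Replicate 1 lay well above the untreated libraries for both genes, while replicates 2 and 3 lay close to them, with COL4A2 of replicate 2 just above. Their differences from the other clones were -3.95 and -3.08, or -4.76 and -3.91 without replicate 1, although COL4A2 in clone 12 averaged only 0.588 TPM. COL3A1, COL5A2 and COL5A3 were lower than in the mean of the other clones as well, by log2 differences of -2.56, -1.13 and -2.78. COL3A1 overlapped clone 8, at log2 levels of 4.40, 2.81 and 3.18 in clone 10 and 3.65, 3.53 and 3.30 there. COL5A3 lay close to clone 12, at 2.02, 1.11 and 2.03 in clone 10 and 2.34, 2.04 and 2.71 there. In the other direction, COL6A3 was at 114, 127 and 162 TPM in clone 10, with a lowest of 4.43, a median of 22.3 and a highest of 429 TPM in the other clones and 0.423, 0.476 and 0.360 TPM in untreated cells, and COL14A1 at 236, 238 and 197 TPM, a lowest of 10.9, a median of 71.0 and a highest of 183 TPM and 2.69, 3.14 and 3.36 TPM in that order. COL6A3 was higher than in 4 of the other clones and lower than in clone 13. COL14A1 in every clone 10 library exceeded every other library (log2 difference 1.73, SE 0.16, adjusted p = 2.71e-07 against the other clones). COL4A1, COL4A2, COL5A2 and COL5A3 were named after their values were seen.

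**Figure D3:**
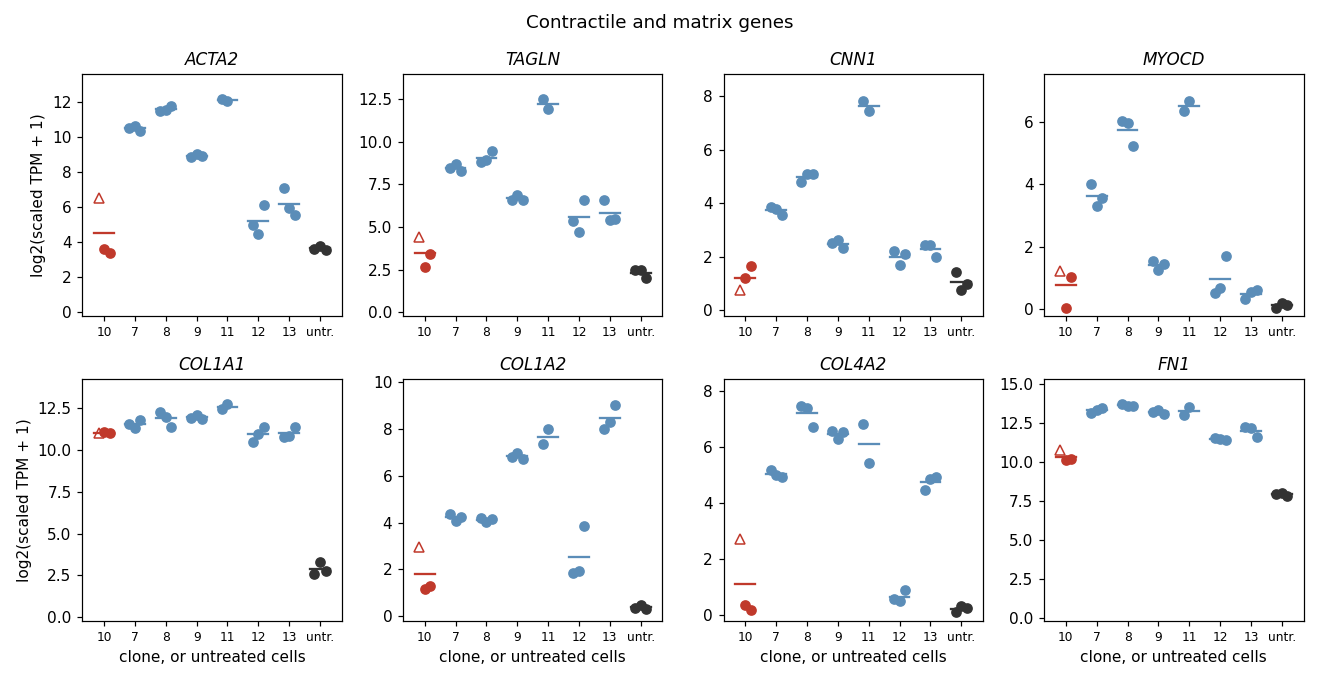
Level of 4 contractile genes (top) and 4 matrix genes (bottom) as log2(scaled TPM + 1), in clone 10 (red; open triangle, replicate 1), the other 6 clones (blue) and untreated cells (black), with bars at group means. CNN1 of clone 10 overlaps untreated cells, and ACTA2 and COL4A2 lie close to untreated cells in replicates 2 and 3, with replicate 1 above. TAGLN lies above untreated cells and below every other clone, COL1A1 lies with the other clones, and FN1 lies between the other clones and untreated cells.

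Of 30 matrix glycoproteins and proteoglycans, 21 rose and 2 fell against untreated cells, and 19 to 22 rose and 0 to 3 fell in each other clone. Compared with the other clones, 5 were higher and 5 lower. THBS1 (thrombospondin 1) was higher, at 474, 660.2 and 473 TPM in clone 10 and a lowest of 111, a median of 223 and a highest of 359 TPM in the other clones. SPARC, a collagen-binding glycoprotein, was lower, at 1604, 1155 and 1565 TPM and a lowest of 2344, a median of 3322 and a highest of 14162 TPM. THBS1 and SPARC were named after their values were seen. Of 29 matrix enzymes and inhibitors, 19 rose and 4 fell, with 2 higher and 9 lower than in the other clones (6 without replicate 1). In each other clone 18 to 22 of these rose and 1 to 3 fell. SERPINE2, a serine protease inhibitor, fell to 109, 67.9 and 147 TPM in clone 10, against a lowest of 75.8, a median of 507 and a highest of 680.1 TPM in the other clones and 451, 442 and 442 TPM in untreated cells. It was lower than in 5 of the other clones.

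Receptor tyrosine kinases and their ligands moved both ways. Of 39 tested, 20 rose and 3 fell against untreated cells, with a median of 1.26, against 1.26 to 1.41 in the other clones. In clone 10, 5 were higher than in the other clones (FGF7, PDGFRA, HGF, PDGFD and ROR1) and 6 lower (NTRK3, NRG1, ROR2, IGF1, EREG and FGF5), in each case also without replicate 1. PDGFRA, a receptor for platelet-derived growth factor, was at 65.2, 91.2 and 60.1 TPM in clone 10, with a lowest of 2.73, a median of 16.8 and a highest of 88.3 TPM in the other clones and 0.772, 0.911 and 1.20 TPM in untreated cells (log2 difference 2.04, SE 0.16, adjusted p = 2.61e-08 against the other clones). It overlapped the highest of the other libraries and was higher than in 4 of the 6 clones. PDGFD, a ligand of the related receptor PDGFRB, was at 23.3, 16.5 and 4.17 TPM in clone 10, with a lowest of 0.283, a median of 2.64 and a highest of 15.5 TPM in the other clones and 2.13, 2.04 and 2.19 TPM in untreated cells. AXL and EGFR rose in clone 10 as elsewhere, by 4.74 and 3.40, and differed from the other clones by -0.83 and 0.33, neither called.

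Cell adhesion molecules included some of the larger differences. Of 36 tested, 21 rose and 8 fell, and 8 were higher and 6 lower than in the other clones. In each other clone 14 to 19 of them rose and 5 to 8 fell. Of all tested genes, 2.75% were higher and 2.88% lower than in the other clones. VCAM1, a ligand of integrins on leukocytes, stood at 973, 946 and 834 TPM in clone 10, with a lowest of 6.05, a median of 448 and a highest of 823 TPM in the other clones and 0.299, 0.404 and 0.482 TPM in untreated cells. All clone 10 libraries exceeded all others, but the call was reached against only 3 of the 6 clones. CADM1, an immunoglobulin-like adhesion molecule, was at 609, 811 and 538 TPM in clone 10, with a lowest of 56.2, a median of 132 and a highest of 519.7 TPM in the other clones and 30.5, 34.0 and 34.2 TPM in untreated cells. CDH2 (N-cadherin) fell, to 2.57, 1.00 and 2.00 TPM in clone 10, against a lowest of 3.48, a median of 21.2 and a highest of 35.3 TPM in the other clones and 12.8, 12.9 and 13.0 TPM in untreated cells. CADM1 was higher than in 5 and CDH2 lower than in 5 of the other clones (2.21 and -2.57 against their mean). ITGA4, an integrin chain that binds VCAM1, was 2.03 and the fibronectin receptor chain ITGA5 -1.76 from the other clones, both named after their values were seen.

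Among 27 mesenchymal transcription factors, 13 rose and 2 fell, PRRX1 being one of the falls. In each other clone 9 to 15 of them rose and 1 or 2 fell. The forkhead factors FOXF2 and FOXF1 and the homeobox factor PITX1 were higher in clone 10 than in the mean of the other clones. FOXF2 was at 148, 204 and 136 TPM in clone 10, with a lowest of 4.78, a median of 36.3 and a highest of 114 TPM in the other clones and 3.58, 3.50 and 3.53 TPM in untreated cells. FOXF1 stood at 163, 209 and 177 TPM, a lowest of 32.2, a median of 68.2 and a highest of 142 TPM and 0.0993, 0.119 and 0.167 TPM in the same order. Both exceeded every other library in all 3 clone 10 libraries and were called higher than 4 of the clones (2.44 and 1.48 against their mean). PITX1 overlapped the other clones, at 38.8, 58.6 and 76.2 TPM against a lowest of 0.793, a median of 16.6 and a highest of 129.8 TPM.

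In secreted signals, SFRP4, a WNT-binding protein, stood at 411, 285 and 256 TPM in clone 10, with a lowest of 3.38, a median of 52.0 and a highest of 230.2 TPM in the other clones and 0.643, 0.350 and 0.211 TPM in untreated cells. It had the largest difference from the other clones among 21 WNT genes (log2 difference 3.30, SE 0.14, adjusted p = 2.12e-11), of which 3 were higher and 1 lower. LIF, a cytokine of the interleukin 6 family, was at 92.6, 126 and 55.3 TPM in clone 10, with a lowest of 5.38, a median of 22.6 and a highest of 50.1 TPM in the other clones and 1.18, 1.31 and 1.09 TPM in untreated cells. The chemokine CCL2 was at 89.8, 55.9 and 26.1 TPM, a lowest of 48.3, a median of 246 and a highest of 383 TPM and 0.441, 0.467 and 0.394 TPM in the same order. CCL2 thus rose against untreated cells (5.18) but less than in 5 of the other clones (-1.86 against their mean). Of 30 cytokines and chemokines, 16 rose and 3 fell, with 5 higher and 8 lower than in the other clones. In each other clone 15 to 20 of them rose and 2 or 3 fell. In the TGF-beta and BMP pathway, 15 of 28 rose and 4 fell (12 to 21 and 1 to 4 in each other clone). There the ligand TGFB2 was 1.54 from the other clones, while the activin chain INHBA was at -1.82.

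Metabolic and stress lists differed in a few members. Of 25 genes of oxidative stress and ferroptosis, 14 rose and 2 fell, with a median of 1.59 against 0.47 to 1.51 in the other clones. MGST1, a membrane glutathione transferase, was at 156, 247 and 178 TPM in clone 10, with a lowest of 0.907, a median of 25.2 and a highest of 182 TPM in the other clones and 1.06, 1.92 and 1.18 TPM in untreated cells. SLC7A11, the cystine transporter that supplies glutathione synthesis, was at 51.3, 54.5 and 47.9 TPM, a lowest of 4.45, a median of 20.5 and a highest of 38.1 TPM and 8.64, 8.83 and 9.39 TPM in that order. Both were higher than in 4 of the other clones (2.72 and 1.69 against their mean), and SLC7A11 exceeded every other library. The lysosomal protease CTSD was at 5303, 5304 and 2537 TPM in clone 10, with a lowest of 616, a median of 1733 and a highest of 4656 TPM in the other clones and 596, 565 and 550.2 TPM in untreated cells, so replicate 3 overlapped the other clones. Of 25 cholesterol synthesis genes, 3 rose and 4 fell, with a median of -0.21 against -1.49 to -0.09 in the other clones. Against the other clones limma called 3 higher and 0 lower, and 1 higher without replicate 1. At an unadjusted p under 0.05, 15 were higher and 1 lower, against 19.2% and 23.2% of all genes. STARD4 and INSIG1, which carry and sense sterols, were above the other clones by 1.03 and 1.01, and by 0.93 and 0.74 without replicate 1, no longer called. Ribosomal protein genes were lower than untreated in 34 of 38 (32 without replicate 1), with a median of -1.34 against -1.21 to -0.04 in the other clones. Their transcripts made up 10.9% ± 1.51 of the TPM in clone 10 and 21.5% ± 1.03 in untreated cells (SD, n = 3 each). Group means were 11.4% in clone 11, 14.2% in clones 12 and 13 and 18.4% to 22.7% in clones 7, 8 and 9. The fall was not particular to clone 10: 35 of the 38 were called lower in clone 11, 16 in clone 12 and 14 in clone 13. In clones 7, 8 and 9 the count was 0.

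For several lists limma called few or no differences from the other clones. Of 20 melanocyte genes 18 fell, with a median of -4.31 against -4.87 to -4.37 elsewhere, and limma called 0 different from the mean of the other clones (1 lower without replicate 1). At an unadjusted p under 0.05, 3 were higher and 3 lower than in the other clones. Of 18 genes of ERK pathway output, 2 rose and 7 fell, with a median of -0.38 against -1.14 to 0.20 in the other clones, and DUSP5, named after its values were seen, was called lower than in their mean (not without replicate 1). SPRY4, an inhibitor that ERK induces, fell by 2.50 on the log2 scale, while DUSP6, an ERK phosphatase, was at 70.3, 125 and 74.8 TPM in clone 10, with a lowest clone mean of 34.8 TPM (clone 11) and a highest of 271 TPM (clone 7) among the others, and 114, 126 and 133 TPM in untreated cells, and was not called in clone 10. Of 40 interferon response genes 36 rose and 1 fell, and only MX2 and IRF1 were higher than in the other clones (1.16 and 1.03). Of 25 antigen presentation genes 15 rose, and of 38 cell cycle genes 8 rose and 1 fell, with 0 members of either list called by limma against the other clones. At an unadjusted p under 0.05, 4 antigen presentation genes were higher and 2 lower, and 3 cell cycle genes were higher and 1 lower, against the shares of all genes given above (19.2% and 23.2%). MKI67, a marker of cycling cells, was at 14.4, 16.9 and 28.1 TPM in clone 10, with a lowest of 14.3, a median of 24.3 and a highest of 33.2 TPM in the other clones and 14.0, 13.0 and 15.0 TPM in untreated cells. In the plot of list medians, clone 10 lay within the range of the other clones for 21 lists, below all of them for 5 and above all of them for 7. Those below were the contractile genes, the collagens, the ribosomal proteins and, by a small margin, the cytokines and the receptor tyrosine kinases. Those above were the YAP and TEAD targets (2.32 against at most 2.22), oxidative stress, antigen presentation, cell adhesion, Notch, neural crest-like and melanocyte lists. The melanocyte margin was small (-4.31 against at most -4.37). These places used replicate 1 and were not worked out without it. Without replicate 1 the median difference from the other clones went from 0.06 to -0.35 for melanocyte genes. It went from 0.03 to -0.08 for cell adhesion and from -0.07 to -0.26 for the neural crest-like list. For the YAP and TEAD targets, oxidative stress and antigen presentation it stayed positive, at 0.27, 0.52 and 0.05. For the Notch list it was negative with and without replicate 1, at -0.30 and -0.27, with 1 member called higher and 3 lower. The place of the Notch list above the other clones thus held only for list medians against untreated cells. A count of 0 calls does not show that the clones were alike.

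**Figure D4:**
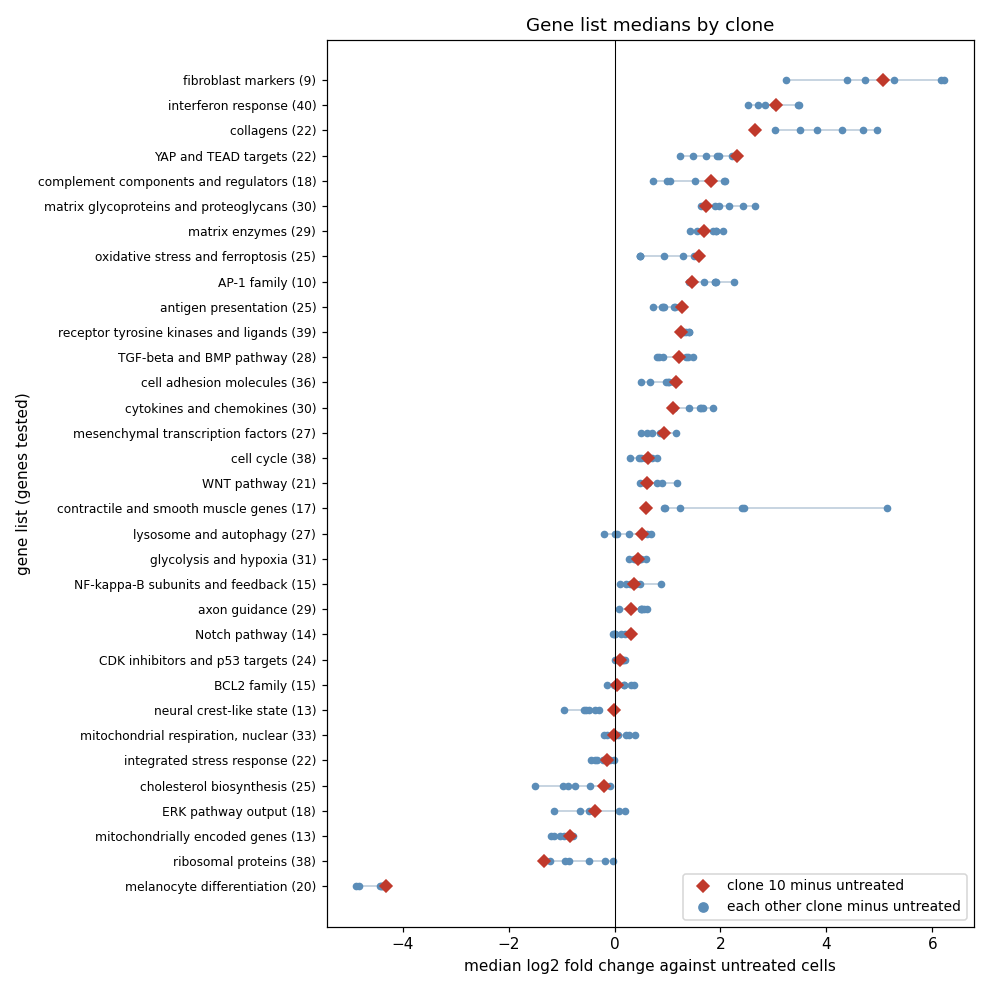
Median log2 fold change against untreated cells of each gene list with at least 9 tested genes (number in brackets), for clone 10 (red diamonds) and each other clone (blue dots). All clones share the untreated libraries, and replicate 1 of clone 10 is included. Clone 10 is lowest for 5 lists, among them collagens (2.66), contractile genes (0.60) and ribosomal proteins (-1.34), highest for 7 and within the range of the other clones for 21.

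Leaving out replicate 1 kept 24 of the 39 higher and 14 of the 17 lower particular genes and 17 of the 18 lacking rises, and brought in others, giving 28, 23 and 26 in all. ICOSLG, a costimulatory ligand, was at 8.64, 2.90 and 1.30 TPM in clone 10 and 0.403, 0.321 and 0.388 TPM in untreated cells, and its difference from the other clones was 1.51 with and 0.95 without replicate 1. It was picked after its values were seen. By contrast the rule-named genes ALDH1A1, PCSK6 and ITGB2 differed from the other clones by 4.58, 2.90 and 2.94 without it.

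**Figure D5:**
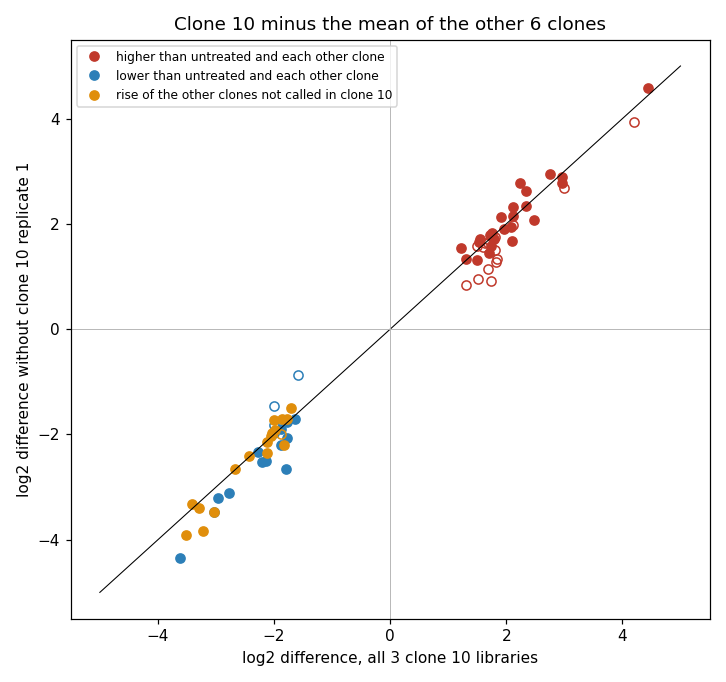
Log2 difference between clone 10 and the mean of the other 6 clones with all 3 clone 10 libraries (horizontal) and without replicate 1 (vertical), for genes higher (red) or lower (blue) than untreated cells and each other clone, and rises of the other clones not called in clone 10 (orange). Filled points are genes that stay in their class without replicate 1, open points those that do not, and the line marks equality. Every point keeps its direction.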

How the data were processed

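Poly(A) RNA of 23 libraries was sequenced with paired ends, and the samples were put in random order before extraction, per the labels' protocols. The deposited table holds 35438 genes; it is named as counts, but every column has the same total, so its values were read as TPM. The authors made these deposited TPM values with kallisto on hg19, per the submitters' processing notes, with no version. How transcripts were summed to genes is not stated, and near-identical paralogs may share reads.

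TPM was rescaled here by a trimmed mean of log ratios (30% of ratios and 5% of levels trimmed on each side, 10822 genes, factors 0.743 to 1.14). Genes with at least 1 TPM in at least 2 libraries were tested as log2(scaled TPM + 1), in 1 limma fit (version 3.58.1, R 4.3.3; lmFit, eBayes with trend) of 8 groups, with contrasts of clone 10 against untreated cells, each other clone and the mean of the other 6. The fit was tested on simulated data. Promoters came from RefSeq (GRCh38.p14), by symbol; TAGLN was not matched.

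The members and the 37 gene lists were chosen with earlier results of these data known, so lists are given by counts and medians. Genes were named by rule: up to 12 higher and 12 lower genes particular to clone 10, up to 8 rises and 8 falls it lacked, both with a mean minimum of 4 TPM, also found without replicate 1 and ordered by the smallest difference from another clone; genes moving against the other clones; up to 4 members per list; and 12 panel genes. Alternatives were another pseudocount, filter and scaling, library weights, a replicate block, clone 10 and untreated libraries only, and each library left out.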

Additional observations from a re-analysis of the deposited data

Results flagged for a closer look

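Effects against untreated cells differed between clone 10 and the other clones in these classes. There were 39 genes higher and 17 lower in clone 10 than in untreated cells and than in each of the other 6 clones. Clone 10 lacked 18 rises and 1 fall, that of MPPED2, which each of the other 6 clones showed. In 1 gene, TNC, clone 10 was called lower and the mean of the other clones higher than untreated cells. For the first 4 classes the difference between the clones was itself tested in each pair, and TNC was also lower in clone 10 than in each other clone.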

How the results depend on the processing

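Apart from leaving out a library, only the pseudocount and the library weights moved a count by more than 1.5 times. With a pseudocount of 0.1 in place of 1, 566 genes changed more in clone 10 downward (148 with a pseudocount of 1), 72 were particular to it and lower (17), 34 rises (18) and 2 falls (1) were lacking, and 30 rises (14) and 2 falls (0) were smaller there. With library weights 1 fall was smaller. Leaving out 1 library at a time gave 1827 to 1988 genes higher and 1510 to 1904 lower than untreated cells, 284 to 484 changed more upward and 123 to 280 downward, 23 to 104 particular and higher, 12 to 42 particular and lower, 16 to 29 lacking rises, 1 to 3 lacking falls, 9 to 16 smaller rises and 0 to 1 smaller falls. The particular higher count was 104 without clone 10 replicate 3 and 23 without clone 12 replicate 1, and the particular lower count 42 without clone 10 replicate 3. Downward changes numbered 280 without clone 10 replicate 2. The causes were not tested. Replicate numbers did not pair clone 10 with untreated libraries (r = -0.06, -0.01 and -0.16 for numbers 1 to 3), and with a replicate block 1851 genes were higher and 1656 lower than untreated cells. Of 205 called values of named genes, 193 or more kept their call under each setting that used the other clones, all 205 with a pseudocount of 0.1, 194 without clone 10 replicate 1, 197 with the values as deposited, and 0 reversed. With clone 10 and untreated libraries only, 106 of the 109 called values that could be computed kept their call.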

Other observations

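Genes of chromosome 10 were slightly lower in clones 10 and 11 than in the other clones. Over 357 chromosome 10 genes with a mean log2 level of at least 2, the median difference from the mean of the untreated libraries was -0.13 to -0.08 in the 3 clone 10 libraries and -0.18 to -0.12 in the 2 clone 11 libraries. It was 0.07 to 0.17 in the libraries of clones 7, 8, 9, 12 and 13 and -0.02 to 0.01 in untreated cells. Against the mean of the other 6 clones the median of these genes in clone 10 was -0.25. In that contrast 5 of the 357 were called higher and 22 lower. Of all 15657 tested genes, 431 (2.75%) were called higher and 451 (2.88%) lower, and to those the minimum of mean level was not applied. Chromosome 10 was picked after the values were seen, and other chromosomes differed too. Over 143 genes of chromosome 18, the median difference of clone 10 from each other clone was 0.08 to 0.19. Over 301 genes of chromosome 20, it was -0.22 to -0.15 from every other clone except clone 8 (0.05). These patterns were noticed in the data and were not tested.

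Mitochondrially encoded transcripts made up 14.7% ± 1.02 of TPM in clone 10 and 20.9% ± 0.313 in untreated cells (SD, n = 3 each), and the group means of the other clones ran from 9.69% to 13.2%.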
